A study of Mus musculus with 6 samples.

Results

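Neurexins, neuroligins, contactins and contactin-associated proteins are cell adhesion molecules of neurons and glia, and 9 genes of these families were taken by name. The rule used no measured value, but earlier results of these data were known when the genes were chosen. The genes are the neurexins Nrxn2 and Nrxn3, the neuroligins Nlgn1, Nlgn2 and Nlgn3, the contactins Cntn1 and Cntn2, and the contactin-associated proteins Cntnap1 and Cntnap2. They are 9 of the 35325 genes, protein-coding or of long non-coding RNA, annotated on the chromosomes used. Their transcript starts were measured by cap analysis of gene expression (CAGE), which sequences a short tag at the capped 5′ end of RNA, in nuclear RNA of 2 mouse cell types. The mESC group held 3 libraries of the R08 embryonic stem cell line, grown without feeder cells in medium with leukemia inhibitory factor. The mOPC group held 3 libraries of oli-neu cells, a line made from mouse oligodendrocyte precursors and grown with thyroid hormones, bFGF and PDGF-BB. No genotype or treatment separated libraries within a group, and each cell type was 1 line. Every library was prepared from RNA of 1 cell type, so cell type and preparation cannot be told apart.

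Neurexins are presynaptic receptors that bind neuroligins across the synaptic cleft. Each neurexin gene has an upstream promoter for the long alpha protein and a promoter inside the gene for the short beta protein, which shares the alpha protein's C-terminal part. Neuroligins are postsynaptic adhesion proteins without enzyme activity, of which Nlgn1 protein is known from excitatory synapses, Nlgn2 protein from inhibitory synapses and Nlgn3 protein from both as well as from glia. Contactins are anchored in the membrane by a lipid. Contactin 1, encoded by Cntn1, forms a complex with Caspr, the product of Cntnap1, on the axon beside the node of Ranvier, where myelin attaches. TAG-1, the product of Cntn2, does the same with Caspr2, the product of Cntnap2, in the neighbouring stretch of axon where potassium channels gather. Contactin 1 is also made by oligodendrocyte precursors.

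The libraries held 16657021 to 40928704 tags, and values are given as tags per 1000000 tags of the library (TPM). Of 10 oligodendrocyte lineage markers, 9 could be tested and all 9 were higher in mOPC (summed 19.7 to 22.1 TPM in mESC and 1713 to 1826 in mOPC), although Nkx2-2 had 0 tags in mOPC and Pdgfra differed little (5.51 ± 0.165 and 8.33 ± 0.444, SD, n = 3 each). All 8 stem cell markers were lower in mOPC (3933 to 4309 against 22.9 to 24.9), with Pou5f1, Nanog, Zfp42, Dppa5a and Tdgf1 at 0. Since the genes described here are best known from neurons, 10 neuron markers were also summed. They came to 307 to 333 TPM in mESC and 255 to 301 in mOPC, with 3 of the 8 tested higher in mOPC, 5 lower, and Rbfox3, Snap25, Slc17a6, Gad2, Stmn2 and Nefl at 0 in mOPC. Different genes made up these sums: mostly Stmn2 in mESC (283 ± 13.0), and mostly Map2 (168 ± 13.4) and Syt1 (88.3 ± 11.0) in mOPC. Of 6 astrocyte markers, 3 of 5 tested were higher in mOPC and 2 lower (119 to 132 against 96.1 to 110, Aqp4 at 0 in mOPC). The 5 microglia markers summed to at most 1.20 TPM in any library, with Cx3cr1, Csf1r and Ptprc at 0 in mOPC. The only 1 tested, P2ry12, was higher in mOPC (0 tags in mESC and 0.872 ± 0.210 TPM in mOPC). The 5 fibroblast markers summed to 3.06 to 3.18 in mESC and 9.67 to 12.4 in mOPC, with Col1a2 and Lum at 0 in mOPC. Of the 2 tested, Col1a1 was higher in mOPC (2.20 ± 0.0347 against 11.1 ± 1.32) and Pdgfrb lower. The part of these other markers in the results was not tested.

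All 9 genes differed between the cell types at their annotated 5′ ends. Tags within 500 bp of an annotated 5′ end of the gene, on its strand, were more abundant in mOPC for Nrxn2, Nlgn1, Nlgn2, Nlgn3, Cntn1 and Cntnap1, and more abundant in mESC for Nrxn3, Cntn2 and Cntnap2. Each of the 9 was called by edgeR's quasi-likelihood test (Benjamini-Hochberg adjusted p under 0.05). The mESC and mOPC libraries of these genes did not overlap. The share of all genes without overlap is not given here, so this does not set the 9 apart either. Calls were common in this comparison: of 16694 genes tested, 42.4% were called higher in mOPC and 48.7% lower, so a call by itself does not set the 9 genes apart. Their differences were large. All 6 higher genes were more than 8-fold higher, against 12.3% of the genes tested, and all 3 lower genes were more than 8-fold lower, against 19.0%. This limit was set after the values were seen, so these counts are a description and not a test. Nrxn3 lay close to it, with a log2 fold change of -3.38 where 8-fold is 3, and passed below it, at -2.55, without mOPC library 3. The median log2 fold change, mOPC over mESC throughout, was 4.07 over the 9 genes and -0.16 over all genes tested. In such bulk libraries, fewer expressing cells and less RNA per cell cannot be told apart.

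**Figure D1:**
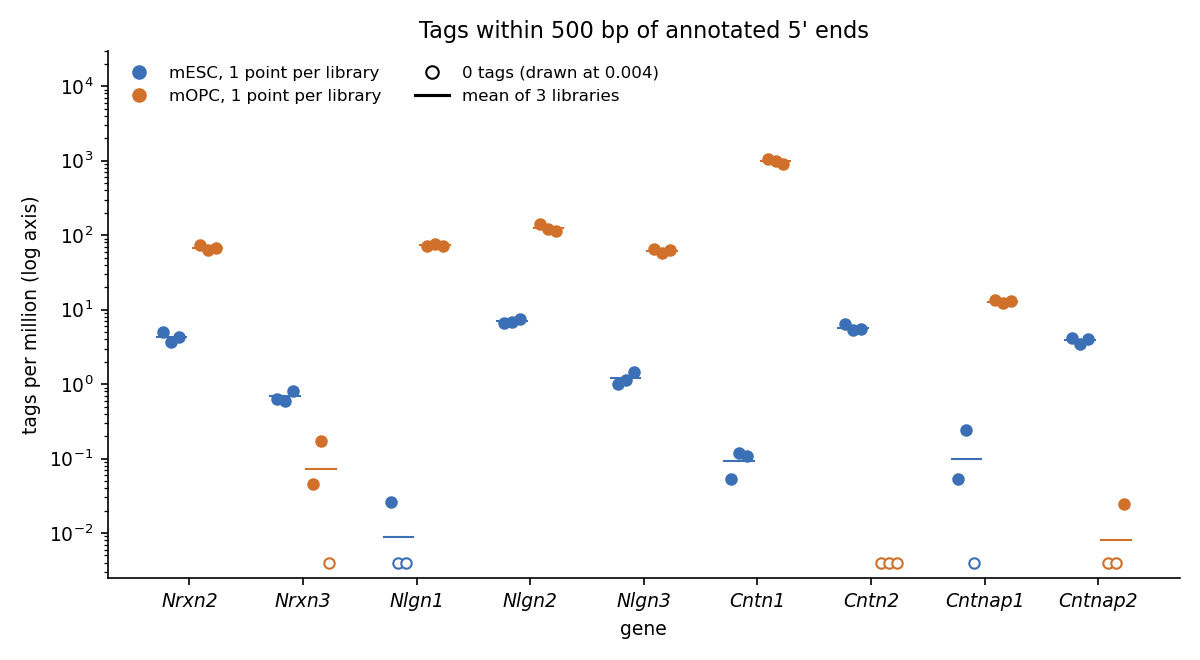
TPM (tags per 1000000, log axis) within 500 bp of annotated 5′ ends of each gene, with 1 point per library, the mean of 3 libraries as a line, and open points for libraries with 0 tags. Nrxn2, Nlgn1, Nlgn2, Nlgn3, Cntn1 and Cntnap1 lie higher in every mOPC library than in any mESC library, Nrxn3, Cntn2 and Cntnap2 lie lower, and Cntn1 reaches 895 to 1044 in mOPC.

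The order of the levels was not the same in the cell types. In mOPC, Cntn1 came first with a mean of 977 ± 75.3 TPM (SD, n = 3), followed by Nlgn2 with 127 ± 14.7. Nlgn1, Nrxn2 and Nlgn3 came next with means of 73.2 ± 3.12, 68.2 ± 5.97 and 61.6 ± 3.63, and the libraries of neighbours in this order overlapped. Cntnap1 had 12.9 ± 0.449, and Nrxn3, Cntnap2 and Cntn2 were at or near 0. In mESC, Nlgn2 led with 6.97 ± 0.382, followed by Cntn2 with 5.71 ± 0.615, and then by Nrxn2 with 4.35 ± 0.662 and Cntnap2 with 3.92 ± 0.381, whose libraries overlapped. Nlgn3 had 1.20 ± 0.237 and Nrxn3 0.683 ± 0.115, and the means of Cntnap1, Cntn1 and Nlgn1 were below 0.1. A tag marks 1 transcript start, so these levels were not divided by gene length.

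A gene can have several promoters, here defined as runs of annotated 5′ ends whose 500 bp windows overlap and numbered P1, P2 and so on from the start of the gene. The 9 genes had 37 such promoters. Of these, 7 had no tag in any library, 16 of the 18 left untested had fewer than 20 tags in all, and 19 could be tested. Among the 19, 15 were called higher in mOPC and 4 lower, where 42.0% and 47.6% of the 21770 promoters tested were called. The 4 lower promoters were Nrxn2 P2, Nrxn3 P6, Cntn2 P1 and Cntnap2 P4, so in this fit Nrxn2 was the only 1 of the 9 genes with promoters called in opposite directions.

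Nrxn2 lies at chr19:6418731-6544169 (mm10, plus strand, ENSMUSG00000033768.17). Its 5′ ends had 5.04, 3.72 and 4.29 TPM in mESC and 74.4, 62.5 and 67.8 in mOPC. Every mOPC library was above every mESC library, and the log2 fold change was 3.81 (SE 0.11, edgeR adjusted p = 3.46e-55), a 14.9-fold difference. With windows of 1000 bp in place of 500 bp it was 3.09.

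This rise sat at the first alpha promoter. P1, at 6418731 to 6418765, where 4 transcripts with the alpha reading frame begin, had 0.897, 0.360 and 0.380 TPM in mESC and 62.9, 51.5 and 57.2 in mOPC (log2 fold change 6.26, SE 0.17, adjusted p = 8.84e-60). That is an 88.2-fold difference, and the log2 value was 7.04 without mESC library 1. P2, at 6427923 to 6428646, moved the other way. It had 3.80, 2.94 and 3.64 TPM in mESC and 0.684, 0.624 and 0.831 in mOPC, a 4.88-fold lower level (log2 fold change -2.48, SE 0.22, adjusted p = 9.6e-21), and no library of 1 group reached the other. The value was -3.98 with windows of 100 bp. The annotation places the alpha start codon, at 6428049, inside P2, and both P1 and P2 carry transcripts that use it. P2 held 79.8 ± 4.75% of the 5′ end tags of Nrxn2 in mESC and 1.05 ± 0.159% in mOPC (SD, n = 3), whereas P1 held a mean of 12.1% in mESC and 83.8% in mOPC.

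The beta promoter of Nrxn2 rose as well. P7, at 6497671 to 6497835 and upstream of the beta start codon at 6498279, had 0.211, 0.240 and 0.163 TPM in mESC and 4.56, 5.34 and 3.98 in mOPC, with no overlap (log2 fold change 4.23, SE 0.29, adjusted p = 7.82e-30, 22.1-fold). P3, at 6445460 to 6446298, carries only transcripts without a reading frame and had 0.0528, 0.120 and 0.0543 TPM in mESC and 5.88, 4.72 and 5.03 in mOPC (log2 fold change 5.93, SE 0.34, adjusted p = 9.61e-36). P4, P5, P6 and P8 had at most 14 tags in any library and were not tested.

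The beta share of Nrxn2 is beta tags over alpha plus beta tags. With windows of 500 bp and every tag counted, it did not separate the cell types. With P1 and P2 both counted as alpha it was 4.30, 6.78 and 3.90% in mESC and 6.69, 9.30 and 6.42% in mOPC. The groups overlapped, and the means, 4.99 ± 1.56% and 7.47 ± 1.59% (SD, n = 3), differed by 2.48 percentage points (exact permutation test, two-sided p = 0.3, where 3 against 3 libraries allow no p below 0.1). The difference was 3.64 points with windows of 1000 bp and 6.03 with positions of 2 or more tags (exact permutation p = 0.1 each). The share also depended on which promoter was called alpha. With P1 alone it was 19.0, 40 and 30% in mESC and 6.76, 9.40 and 6.50% in mOPC, a difference of -22.1 percentage points (exact permutation p = 0.1, the smallest possible), but the mESC shares then rested on 42, 10 and 10 tags. Without this second definition of alpha, and counting the shares of introns below, 11 tests of shares were made, and their smallest adjusted p (Benjamini-Hochberg, exact permutation) was 0.183.

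Nrxn3, at chr12:88722876-90334935 (plus strand, ENSMUSG00000066392.11), was weak in both cell types and went down where Nrxn2 went up. Its 5′ ends had 24, 10 and 15 tags in mESC, or 0.633, 0.600 and 0.814 TPM, and 1, 5 and 0 tags in mOPC, or 0.0456, 0.173 and 0. The log2 fold change was -3.38 (SE 0.52, edgeR adjusted p = 6.19e-09). With so few tags the size was uncertain: it was -5.08 without mOPC library 2 and -2.55 without mOPC library 3.

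Most mESC tags at the 5′ ends of Nrxn3 came from its beta promoter. P6, with both annotated 5′ ends at 89812483, had 23, 9 and 12 tags in mESC and 0 in mOPC, which makes it at least 18.4-fold lower in mOPC (taking 3 tags over the mOPC libraries as the floor, log2 fold change -7.18, SE 0.85, adjusted p = 5.07e-14). P1, where 4 transcripts begin, among them an alpha transcript annotated as subject to nonsense-mediated decay, had 1, 1 and 3 tags in mESC and 1, 5 and 0 in mOPC, which cannot be divided among these transcripts. The coding alpha promoter P3, at 88794504, had 0 tags in every library. The beta share was 95.8, 90.0 and 80.0% in mESC. In mOPC it was 0% of 1 tag and 0% of 5 tags in libraries 1 and 2, and library 3 had no tag to share out, so the difference of -88.6 percentage points (exact permutation p = 0.1, the smallest possible) rested on 6 mOPC tags. The beta promoter is shown because it was the only Nrxn3 promoter tested. In this and the following sequences, which are RefSeq windows (GRCm38.p6, the build of the tags) from 250 bases before to 50 bases after a gene start, capitals mark each position with at least 5% of the window's tags in the cell type with more of them.
Nrxn3 beta promoter, chr12:89812233-89812532, plus strand: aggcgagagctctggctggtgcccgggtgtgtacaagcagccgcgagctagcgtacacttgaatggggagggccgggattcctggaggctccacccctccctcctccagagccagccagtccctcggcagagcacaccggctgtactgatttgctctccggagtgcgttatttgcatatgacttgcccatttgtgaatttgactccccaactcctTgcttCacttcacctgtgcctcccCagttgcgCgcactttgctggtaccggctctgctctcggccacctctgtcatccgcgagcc

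**Figure D2:**
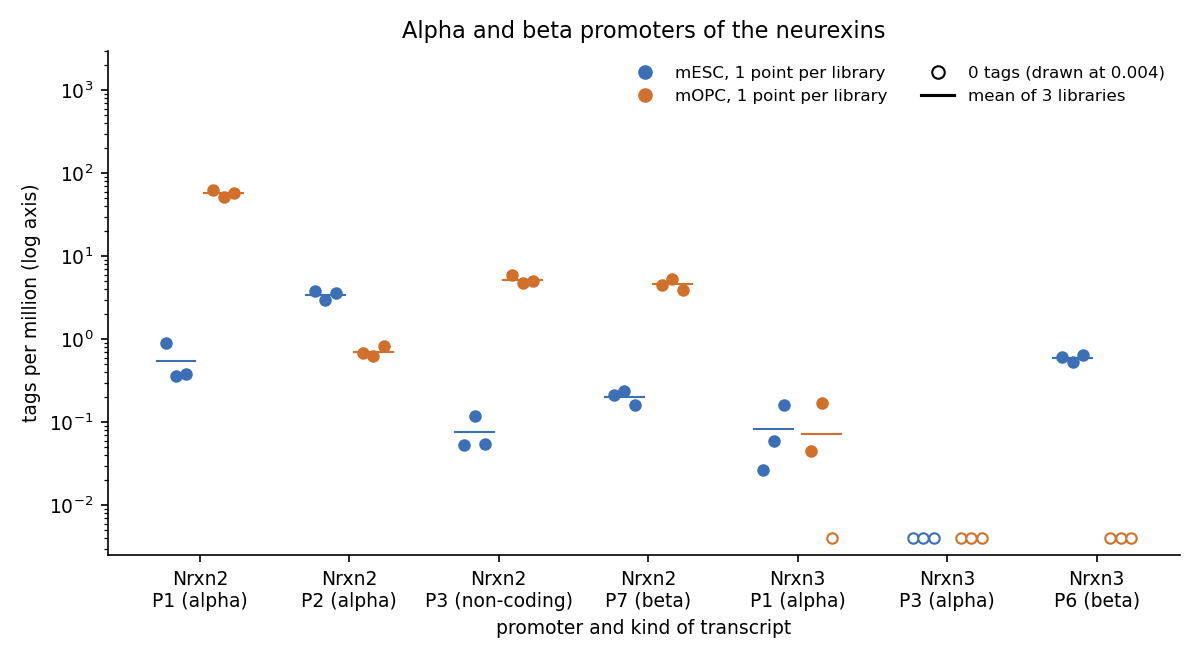
TPM (log axis) at the alpha and beta promoters of Nrxn2 and Nrxn3 and at the non-coding promoter P3 of Nrxn2, with 1 point per library, the mean of 3 libraries as a line, and open points for 0 tags. Nrxn2 P1, P3 and P7 are higher in mOPC, Nrxn2 P2 and Nrxn3 P6 are higher in mESC, and Nrxn3 P3 has 0 tags in all 6 libraries.

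Transcription usually starts at a purine that follows a pyrimidine, and the main deposited positions mostly lay on the pyrimidine, 1 base before that purine. Over all RefSeq windows with at least 100 tags, the main position and the base after it were a pyrimidine followed by a purine in 87.4% of windows in mESC and 88.5% in mOPC, against 1.28% and 1.20% for the pair that ends at the main position. Of the 9 windows of these genes that held tags, 7 had a pyrimidine followed by a purine in this place. The capitals are printed at the deposited positions.

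All 3 neuroligins were higher in mOPC, and Nlgn1 was close to absent from mESC. Nlgn1 lies at chr3:25426215-26332460 (minus strand, ENSMUSG00000063887.13). Its 5′ ends had 1, 0 and 0 tags in mESC and 1585, 2211 and 2891 in mOPC, or 72.3, 76.7 and 70.6 TPM. The pooled ratio was 5322, with a 95% interval from 955 to 210230 that covers counting error only. The log2 fold change was 11.87 (SE 0.25, edgeR adjusted p = 1.46e-69), and 13.85 without mESC library 1, the library with the single tag.

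Nlgn1 was started from several places in mOPC. P1, at 26331870 to 26332460, had 50.7, 57.8 and 52.3 TPM in mOPC (log2 fold change 11.33, SE 0.27, adjusted p = 1.16e-79), against 1 tag in all of mESC. P2, at 26153307, had 20.4, 17.8 and 17.5 and at least 445-fold less in mESC, where it had 0 tags. P3, at 26133734, had 1.19, 1.07 and 0.831, with 0 tags in mESC and a floor of 24.1-fold. The strongest group of starts lay only partly within these windows. A cluster 822 bp wide, from 26153264 to 26154085, had its main position at 26153970, which is 663 bp upstream of the annotated end of P2, so that the P2 window took in only part of it. It had 0 tags in mESC and 1476, 2020 and 2599 in mOPC, or 67.3, 70.0 and 63.5 TPM, which is at least 1617-fold more. RefSeq places a gene start at 26153986, close to that main position. Windows of 1000 bp took more of it in, and the log2 fold change of Nlgn1 was then 12.65, against 11.03 with 100 bp. Both strong start regions of Nlgn1 are shown, and both were used only in mOPC apart from 1 mESC tag in the first.
Nlgn1 first promoter, chr3:26331860-26332159, minus strand: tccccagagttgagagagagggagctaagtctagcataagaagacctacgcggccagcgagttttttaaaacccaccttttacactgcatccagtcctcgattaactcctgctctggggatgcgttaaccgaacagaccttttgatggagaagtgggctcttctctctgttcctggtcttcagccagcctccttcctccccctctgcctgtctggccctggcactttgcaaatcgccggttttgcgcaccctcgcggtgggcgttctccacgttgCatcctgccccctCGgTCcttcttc
Nlgn1 internal promoter, chr3:26153937-26154236, minus strand: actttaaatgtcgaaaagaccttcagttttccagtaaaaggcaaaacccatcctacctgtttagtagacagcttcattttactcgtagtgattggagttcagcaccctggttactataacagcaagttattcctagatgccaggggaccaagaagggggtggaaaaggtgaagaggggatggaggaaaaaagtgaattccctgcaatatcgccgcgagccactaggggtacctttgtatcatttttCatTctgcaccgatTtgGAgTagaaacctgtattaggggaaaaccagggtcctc

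Nlgn2, at chr11:69823122-69837784 (minus strand, ENSMUSG00000051790.15), was the strongest of the 9 genes in mESC and still rose. Its 5′ ends had 6.62, 6.90 and 7.38 TPM in mESC and 143, 122 and 114 in mOPC, an 18.0-fold difference without overlap (log2 fold change 4.07, SE 0.11, edgeR adjusted p = 6.06e-61). The rise was at P1, at 69837784, with 4.57, 5.10 and 5.26 TPM in mESC and 139, 119 and 110 in mOPC (log2 fold change 4.42, SE 0.11, adjusted p = 4.37e-75). P1 held 71.4 ± 2.50% of the gene's 5′ end tags in mESC and 97.1 ± 0.444% in mOPC (SD, n = 3). The same position, 69837744, was the main start in all 6 libraries and took 33.5% of the P1 tags in mESC and 60.5% in mOPC.

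The other promoters of Nlgn2 changed less. P2, at 69834259 to 69834849, had 1.87, 1.80 and 2.01 TPM in mESC and 2.87, 3.05 and 3.08 in mOPC (log2 fold change 0.45, SE 0.19, adjusted p = 0.0234). This value was not stable: it lost its call under 7 alternatives (adjusted p from 0.064 to 0.81), among them DESeq2 and leaving out any 1 mESC library or mOPC library 3, when it was 0.37 to 0.44, and became -0.79 with windows of 100 bp. P3 had 7, 0 and 2 tags in mESC and 15, 14 and 32 in mOPC (log2 fold change 2.17, adjusted p = 1.15e-05), and 3.23 without mESC library 1. The Nlgn2 window is shown because 1 position carries most of its tags.
Nlgn2 promoter, chr11:69837735-69838034, minus strand: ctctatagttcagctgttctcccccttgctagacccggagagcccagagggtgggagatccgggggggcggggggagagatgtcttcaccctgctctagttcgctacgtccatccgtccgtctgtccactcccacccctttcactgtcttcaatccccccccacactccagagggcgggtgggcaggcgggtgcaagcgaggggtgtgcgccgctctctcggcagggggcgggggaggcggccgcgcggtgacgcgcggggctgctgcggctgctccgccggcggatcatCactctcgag

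Nlgn3, at X:101299168-101325963 (plus strand, ENSMUSG00000031302.16), had 1.00, 1.14 and 1.47 TPM at its 5′ ends in mESC and 64.4, 57.5 and 62.9 in mOPC. The mOPC libraries were all far above the mESC libraries (log2 fold change 5.61, SE 0.14, edgeR adjusted p = 3.03e-62, 53.5-fold). P1, at 101299168 to 101299210, held nearly all of these tags, with 0.977, 1.14 and 1.41 TPM in mESC and 63.6, 56.5 and 61.8 in mOPC (log2 fold change 5.52, SE 0.14, adjusted p = 1.56e-74). Its starts lay close together, with the central 80% of tags within 46 bp in mESC and 41 bp in mOPC and the main start at 101299172 in both. P2, the 5′ end of a transcript without a reading frame, had 1, 0 and 1 tags in mESC and 15, 28 and 28 in mOPC (log2 fold change 4.41). Gm21986 overlaps Nlgn3 on the same strand, and tags in the overlap cannot be assigned to 1 of them.

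The contactins went in opposite directions. Cntn1, at chr15:92051165-92341967 (plus strand, ENSMUSG00000055022.14), had 2 tags at its 5′ ends in each mESC library and 22893, 28586 and 36651 tags there in mOPC. This is 0.0528, 0.120 and 0.109 TPM against 1044, 991 and 895, a pooled ratio of 11690. The log2 fold change was 13.34 (SE 0.19, edgeR adjusted p = 4.98e-84), and 99.9% of the genes tested had a lower one.

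Cntn1 was transcribed from 2 strong promoters in mOPC. P1, at 92051165, had 654, 607 and 517 TPM (log2 fold change 12.52, SE 0.19, adjusted p = 4.97e-104), and held all 6 of the gene's 5′ end tags in mESC. P3, at 92161357 inside the gene, had 381, 375 and 370 in mOPC and 0 tags in mESC, so that it was at least 9097-fold higher in mOPC. P2, at 92128188, had 8.57, 9.15 and 8.72 in mOPC and 0 tags in mESC, at least 215-fold higher. P1 held 60.6 ± 2.53% and P3 38.5 ± 2.45% of the 5′ end tags in mOPC (SD, n = 3). The shape of the starts differed between them. At P1 a single position, 92051218, took 41.4% of the tags in mOPC and was the main start in 3 of 3 libraries, and the central 80% of tags spanned 81 bp. At P3 the main position, 92161283, took 10.1% and the central 80% spanned 367 bp. Both promoters are shown for this contrast. The main position of P1 lies just past the end of its window, whose capitals therefore mark the positions next in strength.
Cntn1 first promoter, chr15:92050915-92051214, plus strand: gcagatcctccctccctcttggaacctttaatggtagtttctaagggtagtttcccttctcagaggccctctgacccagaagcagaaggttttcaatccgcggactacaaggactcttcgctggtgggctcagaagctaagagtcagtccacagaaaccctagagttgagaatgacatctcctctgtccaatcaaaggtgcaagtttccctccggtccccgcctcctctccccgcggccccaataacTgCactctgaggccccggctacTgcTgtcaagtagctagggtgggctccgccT
Cntn1 internal promoter P3, chr15:92161107-92161406, plus strand: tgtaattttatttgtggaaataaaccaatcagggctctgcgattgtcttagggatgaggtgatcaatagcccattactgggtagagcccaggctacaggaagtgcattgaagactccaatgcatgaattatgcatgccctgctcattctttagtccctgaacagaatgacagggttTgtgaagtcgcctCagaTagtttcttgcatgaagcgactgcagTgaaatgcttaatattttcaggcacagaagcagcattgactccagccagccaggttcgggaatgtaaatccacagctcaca

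Cntn2, at chr1:132509427-132543256 (minus strand, ENSMUSG00000053024.14), had 243, 88 and 100 tags at its 5′ ends in mESC and 0 tags there in all 3 mOPC libraries. In mESC this was 6.41, 5.28 and 5.43 TPM, and the level in mOPC was at least 181-fold lower (log2 fold change -10.38, SE 0.48, edgeR adjusted p = 9.48e-39). Windows of 1000 bp gave -7.92. P1, at 132542865 to 132543256, held nearly all 5′ end tags of the gene, with 6.36, 5.22 and 5.32 TPM in mESC (log2 fold change -10.42, SE 0.47, adjusted p = 3.91e-46). Its main start was at 132542900, with the central 80% of tags within 95 bp. The window is shown as a promoter with tags in every mESC library and 0 tags in mOPC.
Cntn2 promoter, chr1:132542891-132543190, minus strand: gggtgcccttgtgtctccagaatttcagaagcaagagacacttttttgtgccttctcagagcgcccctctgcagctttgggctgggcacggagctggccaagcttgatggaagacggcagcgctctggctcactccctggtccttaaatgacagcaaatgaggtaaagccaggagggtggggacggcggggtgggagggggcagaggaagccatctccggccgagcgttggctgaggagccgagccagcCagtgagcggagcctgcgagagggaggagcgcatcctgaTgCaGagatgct

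Summed over all 5′ ends, the genes of the contactin-associated proteins divided in the same way as the contactins these proteins are known to bind. For Cntnap2 this rested on a promoter of short transcripts, since the promoter of its full-length transcripts had 0 tags in every library. Cntnap1, at chr11:101170523-101190724 (plus strand, ENSMUSG00000017167.6), had 2, 4 and 0 tags at its 5′ ends in mESC and 291, 357 and 528 in mOPC. This was 0.0528, 0.240 and 0 TPM against 13.3, 12.4 and 12.9, a 156-fold difference (log2 fold change 7.09, SE 0.28, edgeR adjusted p = 6.97e-44, and 8.20 without mESC library 2). Most of these tags lay at P2, at 101176041, with 1, 4 and 0 tags in mESC and 283, 352 and 519 in mOPC (log2 fold change 7.21, SE 0.29, adjusted p = 6.34e-51). That value was 6.52 without mESC library 1 and 8.91 without mESC library 2. A start at 101172158, between P1 and P2 and near no annotated 5′ end, was as strong as P2 in mOPC. It had 46, 12 and 13 tags in mESC and 282, 376 and 605 in mOPC, or 1.21, 0.720 and 0.705 TPM against 12.9, 13.0 and 14.8, which is 14.2-fold.

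Cntnap2, at chr6:45059357-47304213 (plus strand, ENSMUSG00000039419.17), is a very long gene, and none of its tags came from its start. P1, at 45059357 to 45060061, where the full-length transcripts begin, had 0 tags among the 72972385 of mESC and the 91692553 of mOPC. Nearly all mESC tags at its 5′ ends came from P4, at 47244387 to 47244453 near the other end of the gene, where short coding transcripts begin. P4 had 159, 57 and 74 tags in mESC, or 4.20, 3.42 and 4.02 TPM, and 0, 0 and 1 in mOPC. The pooled ratio was 364 with a 95% interval from 64.9 to 14442 for counting error, and the log2 fold change was -8.18 (SE 0.44, edgeR adjusted p = 9.7e-39), or -9.70 without mOPC library 3, which held the single tag. Over all 5′ ends of Cntnap2 it was -8.10 (SE 0.44, adjusted p = 2.6e-33), -9.65 without that library and -7.37 with windows of 1000 bp. The P4 window is shown because it was the promoter behind the call of this gene.
Cntnap2 promoter of the short transcripts, chr6:47244146-47244445, plus strand: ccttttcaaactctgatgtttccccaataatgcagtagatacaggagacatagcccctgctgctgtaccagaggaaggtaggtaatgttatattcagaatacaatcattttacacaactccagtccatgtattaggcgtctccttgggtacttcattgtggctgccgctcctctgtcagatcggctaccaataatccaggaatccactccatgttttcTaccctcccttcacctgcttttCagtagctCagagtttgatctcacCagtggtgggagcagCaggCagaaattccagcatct

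Of 4 motifs searched on both strands, none occurred in all 8 windows printed above. The TATA box, TATAAA, occurred in none of the 8 windows shown, and in 13.6% of all 32851 RefSeq windows of this length. The window at Cntn1 P2, which held tags but is not printed, had 1 match. CCAAT occurred in 4 of the 8, with 2 matches each in Cntn1 P1, Cntn1 P3 and Cntnap2 P4 and 1 in the internal promoter of Nlgn1, and in 37.4% of all windows. The GC box, GGGCGG, had 3 matches in the Nlgn2 window and none in the other 7, and occurred in 35.7% of all windows. The E-box, CANNTG, had 5 matches in the beta promoter of Nrxn3 and 1 each in Cntn2, Cntnap2 P4 and Nlgn2, and occurred in 72.3% of all windows. Each motif was counted by itself, so overlapping matches of different motifs each count. Base composition varied widely. The GC content was 68.7% at Nlgn2, 61.3% at Cntn2, 60.7% at Nrxn3 beta, 55.7% and 44.7% at the first and internal promoters of Nlgn1, 55.3% at Cntn1 P1, 46.3% at Cntnap2 P4 and 45.0% at Cntn1 P3, with a median of 52.7% over all windows. The internal promoters of Nlgn1, Cntn1 and Cntnap2 thus had a lower GC content than that median, unlike the beta promoter of Nrxn3. A match is a string of letters in the window and was not tested as a binding site.

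Introns gave a second reading of these genes. Nuclear RNA includes unspliced transcripts, and intronic tags here are those in the gene body on its strand, outside annotated exons and more than 500 bp from annotated 5′ ends. Such tags need not be starts of capped RNA. In this fit 5 of the 9 genes were called higher in mOPC, 3 lower and 1 was not called, where 40.3% and 39.6% of 12307 genes tested were called. The median log2 fold change was 2.23 over the 9 and 0.03 over all genes tested. The scaling matters for introns more than for 5′ ends. The share of tags in the introns of protein-coding genes was 4.05 ± 0.213% of intronic plus 5′ end tags in mESC and 11.6 ± 0.304% in mOPC (SD, n = 3), and with scaling to the library total the median over all genes became 1.10, with 7755 genes called higher and 2930 lower against 4960 and 4873.

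Cntn1 and Nlgn1 rose in introns as they did at 5′ ends. The introns of Cntn1 had 0.0792, 0.0600 and 0.109 TPM in mESC and 511, 534 and 509 in mOPC (log2 fold change 11.50, SE 0.18, edgeR adjusted p = 3.43e-144). Those of Nlgn1 had 0.106, 0.120 and 0.217 in mESC and 357, 382 and 360 in mOPC (log2 fold change 10.28, SE 0.17, adjusted p = 3.04e-139). Per kb of intron, Cntn1 had 1.83, 1.91 and 1.82 TPM in mOPC and Nlgn1 0.401, 0.429 and 0.405, so Cntn1 was the more densely covered. The tags were spread over the genes: 47434 mOPC tags lay at 21612 positions in Cntn1 and 33590 at 18747 positions in Nlgn1. The densest 1 kb held 4.36% of them in Cntn1 and 13.2% in Nlgn1.

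Along the gene, the mOPC libraries followed 1 profile closely. In 20 equal bins of Cntn1, the highest values were at 29.1 to 43.6 kb from the first 5′ end, with 4.84, 5.28 and 4.92 TPM per kb of intron, and at 101.8 to 116.3 kb, the bin that contains P3, with 3.95, 4.03 and 3.67. In Nlgn1 the first 3 bins were low, with 0.054 to 0.121, and the highest bin was at 135.9 to 181.2 kb, with 1.14, 1.27 and 1.14, which contains the internal start cluster.

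**Figure D3:**
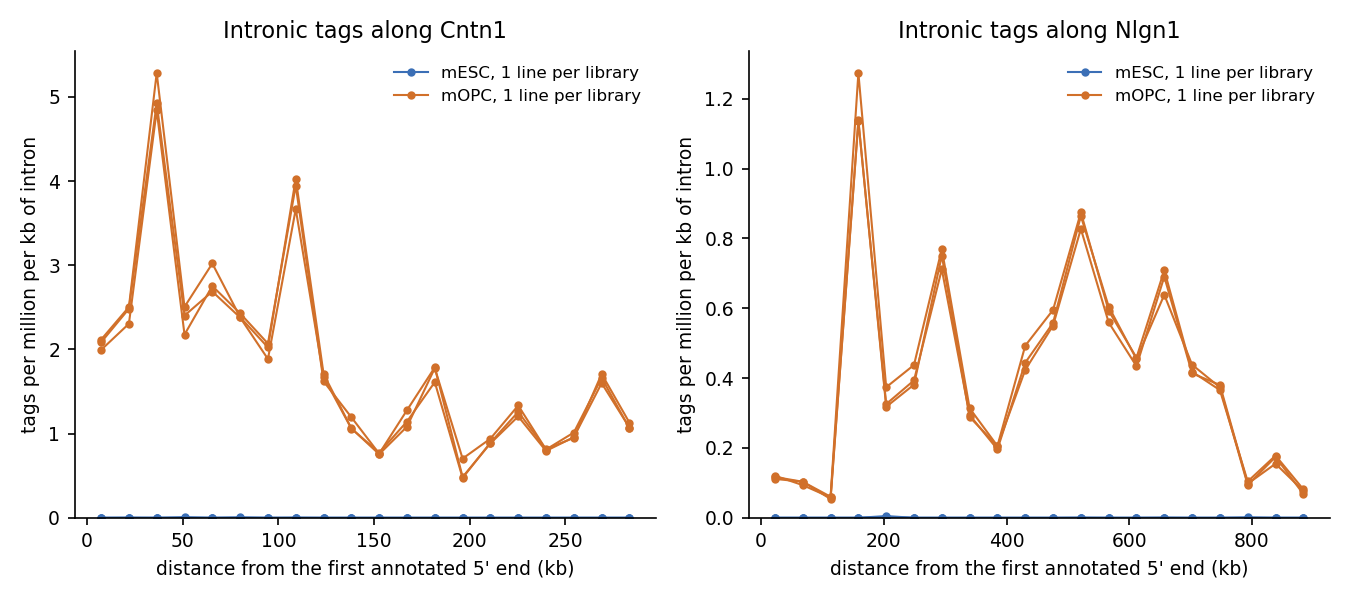
Intronic TPM per kb of intron along Cntn1 and Nlgn1 in 20 equal bins, against distance from the first annotated 5′ end in kb, with 1 line per library. The mOPC lines lie on each other and peak at 29.1 to 43.6 kb in Cntn1 and at 135.9 to 181.2 kb in Nlgn1, and the mESC lines lie near 0.

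Nlgn2, Nlgn3 and Cntnap1 also rose in introns, each with no overlap between the groups. Nlgn2 had 0.792, 0.480 and 0.705 TPM in mESC and 8.53, 7.87 and 9.70 in mOPC (log2 fold change 2.58). Nlgn3 had 0.0528, 0.360 and 0.326 and then 5.02, 4.20 and 4.69 (log2 fold change 3.48, or 2.66 without mESC library 1). Cntnap1 had 1.79, 1.62 and 1.30 and then 15.5, 15.5 and 17.1 (log2 fold change 2.23). In Cntnap1, 85.9% of the 1488 intronic mOPC tags lay in 1 kb, where the start at 101172158 is. Cntnap2 fell, from 2.88, 2.52 and 3.26 TPM in mESC to 0.456, 0.589 and 0.586 in mOPC (log2 fold change -3.44, SE 0.23, edgeR adjusted p = 2.32e-35).

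The introns of Nrxn2, Nrxn3 and Cntn2 depended on the scaling. Nrxn2 had 9.24, 8.83 and 9.44 TPM in mESC and 11.7, 11.2 and 12.1 in mOPC, so every mOPC library was higher in TPM. Relative to other genes' introns it was lower in mOPC, with a log2 fold change of -0.73 (SE 0.10, edgeR adjusted p = 8.76e-12), and with scaling to the library total it was higher, with 0.35 (adjusted p = 0.00215). In mESC, 43.5% of the 671 intronic Nrxn2 tags lay in 1 kb, against 5.49% of the 1075 tags in mOPC. Starts inside Nrxn2 on its own strand, with tags in mESC and few or none in mOPC, are listed under other observations. Their part in the intronic values of Nrxn2 was not tested. Nrxn3 had 0.211, 0.240 and 0.326 TPM in mESC and 0.912, 0.728 and 0.513 in mOPC, with a log2 fold change of 0.39 (SE 0.42, adjusted p = 0.392) or, scaled to the library total, 1.45 (adjusted p = 4.6e-04). Cntn2 had 0.396, 0.420 and 0.380 in mESC and 0.228, 0.208 and 0.293 in mOPC, with -1.72 (SE 0.44, adjusted p = 1.65e-04) or, scaled to the library total, -0.66 (adjusted p = 0.146).

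**Figure D4:**
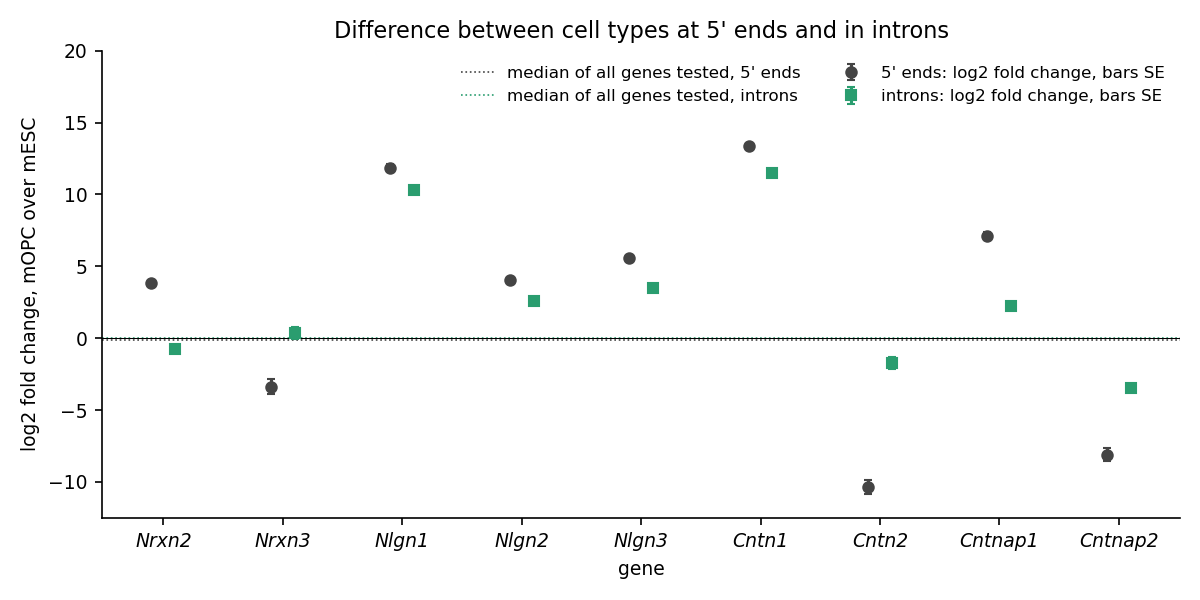
Log2 fold change (mOPC over mESC, bars SE) at 5′ ends and in introns for the 9 genes, with dotted lines at the medians of all genes tested. Both readings are far above 0 for Nlgn1 and Cntn1, and Nrxn2 is at 3.81 at 5′ ends and -0.73 in introns, where the sign turns with scaling to the library total.

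Set against the gene's own 5′ end tags, the intronic share moved in both directions. It went from a mean of 67.9% in mESC to 14.6% in mOPC for Nrxn2, and from 94.7% to 55.5% for Cntnap1. It went from 27.4% to 92.0% for Nrxn3, from 6.57% to 100% for Cntn2 and from 42.4% to 98.7% for Cntnap2, the 3 genes whose 5′ ends were at or near 0 in mOPC. In these 5 genes the libraries did not overlap, and each exact permutation test gave p = 0.1, the smallest possible, with an adjusted p of 0.183. The share summed over all protein-coding genes did not overlap either (4.10, 3.82 and 4.24% in mESC and 11.3, 11.8 and 11.7% in mOPC). The part of all genes without overlap in this share is not given here, so separation alone does not set the 5 genes apart. For Nrxn3, Cntn2 and Cntnap2 the test adds little to the 5′ end result, since a share without 5′ end tags is 100% by definition. Their mOPC shares rested on 21, 26 and 21 tags, on 5, 6 and 12, and on 10, 17 and 25. For Nlgn1 (93.3% to 83.4%), Nlgn2 (8.64% to 6.50%), Nlgn3 (15.7% to 6.99%) and Cntn1 (47.8% to 34.7%) the exact permutation p was 0.2 to 0.4, and with 1 to 6 mESC tags at their 5′ ends the mESC shares of Nlgn1 and Cntn1 are poorly determined.

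Other genes of the same systems were counted at their 5′ ends from lists chosen by function. Among 21 neurexin ligands other than neuroligins, 17 were tested, and 10 were higher in mOPC, 5 lower and 2 not called, with a median log2 fold change of 1.57. Among called genes with at least 1 TPM in the higher cell type, the highest were Adgrl3, a latrophilin, with a mean of 0.148 ± 0.112 TPM in mESC and 207 ± 9.67 in mOPC (SD, n = 3, log2 fold change 10.54), Lrrtm3, a postsynaptic leucine-rich repeat protein (9.81), and Lrrtm4, of the same family, which had 0 tags in mESC and 3.90 ± 0.339 in mOPC, at least 96.3-fold higher. With the same limit, the lowest were Clstn3, a calsyntenin, with 26.0 ± 2.02 in mESC and 0.228 ± 0.0788 in mOPC (-6.85), and the latrophilins Adgrl1 (103 to 50.8, -1.13) and Adgrl2 (9.84 to 4.94, -1.09). The 3 latrophilins thus differed in direction.

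Of 18 intracellular partners and regulators of neurexins and neuroligins, all were tested and 15 were higher in mOPC, 2 lower and 1 not called, with a median log2 fold change of 2.90. Mdga2, which binds neuroligins and blocks their contact with neurexins, went from 0.00880 ± 0.0152 to 92.3 ± 11.7 TPM (12.20). The neurexin-binding adaptors Apba1 (5.66) and Apba2 (5.10) were also higher. Lin7c, a scaffold protein that forms a complex with CASK, which binds neurexins, was lower, with 400 ± 57.1 in mESC and 59.2 ± 2.19 in mOPC (-2.88), and its relative Lin7b was lower too (-4.61).

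All 19 contactin and axo-glial partners were tested, and 16 were higher in mOPC and 3 lower, with a median log2 fold change of 3.71. The matrix proteins tenascin-R and tenascin-C, which bind contactin 1, had 0 tags in mESC. Tnr reached 1007 ± 57.9 TPM in mOPC, at least 24609-fold higher and close to the level of Cntn1, and Tnc 46.4 ± 4.27, at least 1116-fold higher. Kcna2, a potassium channel of the axon region of Caspr2, went from 0.0952 ± 0.0905 to 173 ± 12.4 (10.64), while Cntnap2 had 1 tag at its 5′ ends in mOPC. Aplp1, a relative of the amyloid precursor protein, was lower (50.6 to 9.58, -2.52), as was Ptprg, a receptor phosphatase that binds contactins (75.7 to 51.9, -0.66). Against these lists the median over all genes tested was -0.16, and a list's count is to be read beside the 42.4% higher and 48.7% lower over all genes.

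Of 11 further genes of the neurexin, neuroligin, contactin and Cntnap families, 10 were in the annotation used and 3 of these had enough tags to be tested, and 2 were higher in mOPC and 1 lower. Cntn4 went from 0.163 ± 0.120 to 65.6 ± 2.52 TPM (log2 fold change 8.74), so that it was, after Cntn1, a second contactin with a high level in mOPC. Cntnap3 went from 1.79 ± 0.223 to 0.0152 ± 0.0263 (-6.98). Of the remaining family genes, Cntn3, Cntnap5a and Cntnap5c had 0 tags in both cell types.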

How the data were processed

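CAGE libraries of nuclear RNA came from R08 mESC and oli-neu mOPC, 3 each, grouped by cell type per the labels. The authors reverse transcribed RNA with random primers, trapped capped 5′ ends, sequenced the tags and aligned them to mm10. The submitters' processing notes name CASAVA 1.8 and BWA 0.5.9. The paper's methods instead name bowtie for the CAGE tags, with unique alignments only. Which aligner made the deposited counts is not known. The deposited values are raw counts of tags per position and strand, without normalization, and all were whole numbers.

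Tags were summed with Python 3.11.15, numpy 2.4.6 and pandas 2.3.3 over GENCODE vM21 genes, within 500 bp of annotated 5′ ends, per promoter and in introns. Every gene or promoter passing filterByExpr was fitted with edgeR 4.0.16 in R 4.3.3 (TMM, robust quasi-likelihood test, Benjamini-Hochberg adjusted p under 0.05). DESeq2 1.42.0 was an alternative. The fit was tested on simulated data with 200 genes changed. Far more, 15209, were called at 5′ ends here, so the simulation does not test the scaling under so wide a change. Shares were compared by exact permutation tests (own code on numpy), with scipy 1.17.1 for intervals, and figures were drawn with matplotlib 3.10.9. A level of 0 was set to 3 tags over the group's libraries for "at least" folds, and ratios on 1 to 3 tags carry 95% exact binomial intervals. Both cover counting error only. Totals of 16657021 to 40928704 tags limit the precision of weak promoters.

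The labels do not state separate cultures for the libraries, so p-values measure the spread between these libraries, which may be technical. The genes and the lists were chosen with earlier results of these data known, and the 8-fold limit after values were seen. All 9 genes were named. From partner lists, those named were called, without overlap between groups, at 1 TPM or more in the higher cell type, and among the 3 largest changes in each direction, and not every listed gene that met this is named. Start clusters were positions joined up to 50 bp with at least 30 tags. Alternatives were scaling, tool, filter, window, transcripts used, positions with 2 tags, a replicate block and leaving out each library. RNA-DNA interaction data of the study were not used here.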

Additional observations from a re-analysis of the deposited data

How the results depend on the processing

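At 5′ ends, all 134 alternative values of the 9 genes kept direction and call. In introns 130 of 133 did, and of the tested promoters 266 of 274. With only positions of 2 or more tags, fewer genes were tested in introns and 5906 were called, against 9833. The log2 fold change of Nrxn2 introns became 0.35 with scaling to the library total, and that of Nlgn2 P2 became -0.79 with windows of 100 bp. The difference in beta share of Nrxn2 became -0.00466 percentage points with basic transcripts only and -22.1 with alpha from the first promoter only, an alternative chosen after seeing the data. It kept its direction in 9 of 11 alternatives. Among these it was 3.64 with windows of 1000 bp, 6.03 with positions of 2 or more tags and 3.37 without mESC library 2 (exact permutation p = 0.1 each). The causes were not tested. Leaving out each library in turn gave 15064 to 15662 genes called at 5′ ends, 19326 to 20822 promoters and 9550 to 10289 genes in introns. With scaling to the library total the median of all tested features moved from -0.16 to -0.05 at 5′ ends, from -0.15 to 0.06 at promoters and from 0.03 to 1.10 in introns. Some alternatives gave no value: 14 are missing, for promoters, for the introns of Cntn2 and Nrxn3 and for the 5′ ends of Nrxn3, 7 of them with positions of 2 or more tags, and the beta share of Nrxn3 has none with basic transcripts only.

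Same-numbered libraries of the cell types shared only a number, with correlations of their deviations of 0.0046, 0.113 and 0.0073. With the replicate block, 15659 genes were called at 5′ ends against 15209, 20520 promoters against 19493 and 10245 genes in introns against 9833. It changed no call of the 9 genes at 5′ ends, at promoters or in introns.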

Other observations

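Several start clusters in these genes belong to no annotated 5′ end of the gene. In mESC, Nrxn2 had 3 starts inside the gene on its own strand, at 6513586 (74, 30 and 27 tags in mESC and 0, 0 and 1 in mOPC), at 6515656 (68, 35 and 40 against 1, 1 and 3) and at 6516413 (74, 35 and 30 against 0 in each). On the other strand, a start at 6515125 had 131, 66 and 80 tags in mESC, or 3.92 ± 0.443 TPM (SD, n = 3), and 0 in mOPC, which is at least 116-fold lower. A start at 6418623, upstream of Nrxn2 P1 and on the other strand, had 122, 43 and 71 tags in mESC and 280, 445 and 635 in mOPC, 4.59-fold higher.

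The strongest start within Cntnap2 was antisense to it. At 47190441 it had 2361, 1068 and 1169 tags in mESC, or 63.3 ± 0.910 TPM, and 0 in mOPC, at least 1926-fold lower, and a sense start at 47190602 had 26, 8 and 16 tags in mESC and 0 in mOPC. A further antisense start at 46530885 had 281, 151 and 183 tags in mESC and 0 in mOPC. Cntn1 had an antisense start at 92177575 with 0 tags in mESC and 188, 242 and 342 in mOPC, or 8.44 ± 0.117 TPM, and Nlgn1 had one at 26264377 with 24, 18 and 28 tags in mESC and 0 in mOPC. The antisense start at 101171318 in Cntnap1 had 136, 60 and 77 tags in mESC and 606, 865 and 1260 in mOPC, 7.96-fold higher. These clusters were read from the positions after their values were seen, and no test was run on them.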
